A study of Homo sapiens with 16 samples.

Results

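The genes described here are 7 matrix metalloproteinases (Mmp2, Mmp3, Mmp8, Mmp9, Mmp12, Mmp13 and Mmp14) and 3 tissue inhibitors of metalloproteinases (Timp1, Timp2 and Timp3). They were chosen by family and name, with earlier results of these data known, and are 10 of the 32285 genes in the tables. Matrix metalloproteinases are zinc-dependent enzymes that cut collagens, elastin, proteoglycans and many cell surface and secreted proteins. Most are secreted as inactive proenzymes that other proteases activate, and the Timp proteins bind the active enzymes and block them. In solid tumors much of the protease is made by fibroblasts and infiltrating myeloid cells, and RNA levels say nothing of how much enzyme is active.

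The RNA came from transplanted mouse mammary tumors of 2 lines, LPA1-T22 (T22) and LPA1-T127 (T127), each derived from a tumor of a transgenic mouse that expressed the lysophosphatidic acid receptor LPA1 in the mammary epithelium. Tumor chunks were placed in the mammary fat pad of female FVB mice that were 6 weeks old, a syngeneic host with an intact immune system. Mice were put into treatment groups 14 days (T22) or 10 days (T127) after transplantation, and in co-transplanted mice the T22 chunk went into the opposite pad 14 days ahead of the T127 chunk. Mice received vehicle or olaparib, an inhibitor of the DNA repair enzyme PARP, by mouth at 50 mg/kg each day. The sample titles say with or without olaparib, while the treatment label of every sample gives olaparib, and the titles and protocol were followed. The short-term experiment held 4 pools of T22 tumors and 4 pools of T127 tumors taken after 4 or 8 days, and the long-term experiment held 8 pools of T22 and T127 tumors, transplanted singly or together, taken after 20 days. Each pool was 1 droplet capture (3' single-cell RNA-seq) of cells from several tumors. Tumors were tagged before pooling, with multiplexing oligos per the labels and with antibodies per another description of the methods. No table used here ties a cell to its tumor, so vehicle and olaparib cells lie together in each pool and each experiment is 1 sample. Values are therefore given with their range over pools, intervals cover counting error only, and no p-value is given. In the short-term experiment, line and set of pools cannot be told apart.

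The tables held 15094 cells for short-term T22, 8007 for short-term T127 and 30845 for long-term. Long-term pools 1 and 2 shared 3939 cell barcodes, pools 1 and 3 shared 987 and pools 2 and 3 shared 1082, whereas no other pair of long-term pools shared more than 8. The copy with the most UMIs (unique molecular identifiers, which count RNA molecules) was kept, leaving 25723 long-term cells. Totals were 32298013 to 43985662 UMIs per long-term pool after that step, 40270841 to 42436039 per T22 pool and 49690430 to 55600377 per T127 pool, so short-term T127 was the deepest. For several members the long-term pools fell into a pair of sets, pools 1 to 4 and pools 5 to 8, which the labels do not tell apart, so a median over the 8 pools can lie between the sets. In i_CAF, Timp1 was at 3089 to 4920 CPM in pools 1 to 4 and 1579 to 1986 CPM in pools 5 to 8, while Mmp2 (367 to 421 against 531 to 613 CPM) and Timp2 (1276 to 1405 against 1921 to 2216 CPM) were higher in the latter. Mmp8 in the Macro-M2 macrophages was at 11.45 to 26.7 against 50.5 to 90.1 CPM. What sets the pools apart was not tested, and a long-term difference is counted only where the pools of both sets with at least 10 cells do not overlap. Levels are UMIs of a gene per 1000000 UMIs (CPM) of a deposited cell cluster, and the 21 long-term, 17 T22 and 14 T127 clusters with at least 50 cells are compared. The markers fitted most labels used below. The inflammatory cancer-associated fibroblasts (i_CAF) held 26245 CPM of 5 summed fibroblast markers in the long-term pools, and the myofibroblast-like CAFs (my_CAF) held 15644 CPM of pericyte and myofibroblast markers. The CD14-PF4 cluster (98 long-term cells) held markers of several cell types, with 5237 CPM of macrophage, 1950 CPM of epithelial and 468 CPM of neutrophil markers, and results that rest on it are also given without it. T22 malignant cells were in Malign_2 and Malign_3, which were the malignant clusters of the short-term T22 pools, and T127 malignant cells were in Malign_0 and Malign_1. Single genes of the stromal lists were high in some malignant clusters. Dcn, a matrix proteoglycan, was at 4305 CPM in Malign_0 and 4324 CPM in Malign_1, nearly all of their summed fibroblast markers (4472 and 4460 CPM). Acta2, smooth muscle actin, was at 7275 CPM in Malign_2, most of its 8112 CPM of pericyte and myofibroblast markers. Malign_3 held the most epithelial marker RNA (7915 CPM).

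The family was divided among compartments. In the long-term pools 6 of 10 members peaked in a CAF or endothelial cluster, where 28.6% of the 11794 genes that reached 10 CPM peaked. For 5 of them it was i_CAF, where 7.38% of genes peaked. The other 4 members, Mmp8, Mmp9, Mmp12 and Mmp13, peaked in a myeloid cluster (12.5% of genes), and 0 members peaked in a malignant cluster (28.1% of genes). A peak is not the bulk of the RNA, because a large cluster with a modest level can hold more molecules than a small one with a high level. CAFs and endothelial cells together gave 4.09% of all long-term UMIs but 88.5% of those of Mmp3, whereas malignant cells gave 45.8% of all UMIs but 89.7% of those of Timp3. Myeloid cells gave 46.8% of all long-term UMIs and 96.8%, 98.3% and 97.1% of those of Mmp8, Mmp12 and Mmp13. In the short-term pools the highest cluster was the long-term one in 13 of 20 pairs of member and line (41.2% of such pairs over all genes). In T22 it was so for 7 of 10 members (42.4% of genes) and in T127 for 6 of 10 (40% of genes). In T127 my_CAF and Macro-M1, the long-term peaks of Timp3 and Mmp13, had too few cells to be compared. Timp3 was there highest in Malign_1 at 1645 CPM.

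**Figure D1:**
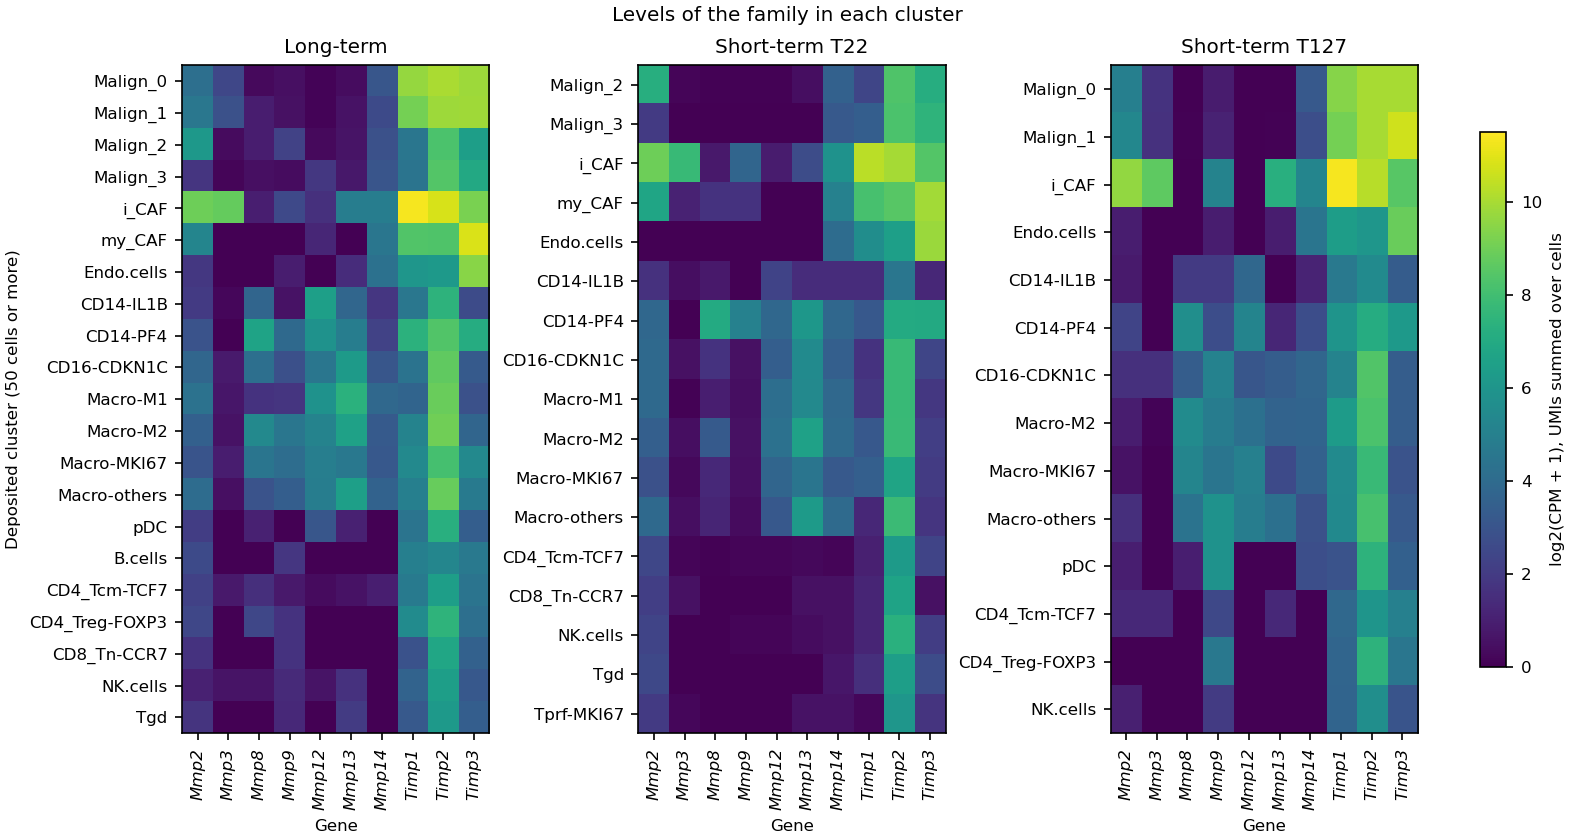
Level of each member (columns, log2(CPM + 1)) in each deposited cluster of at least 50 cells (rows), for the long-term, short-term T22 and short-term T127 pools. Mmp2, Mmp3 and the Timp genes are high in i_CAF in all 3 panels (Mmp3 438, 214 and 404 CPM), and Mmp8, Mmp12 and Mmp13 are confined largely to the myeloid rows apart from Mmp13 in T127 i_CAF (151 CPM).

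**Figure D2:**
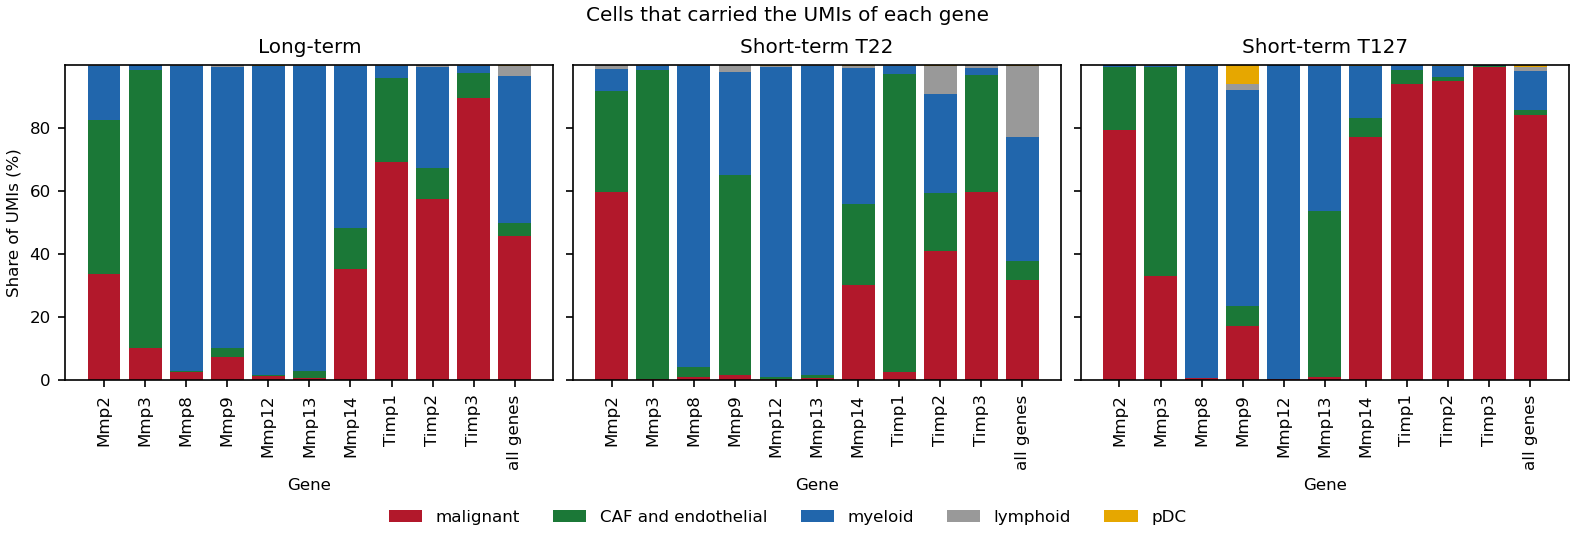
Share of each member's UMIs (stacked bars, percent) found in malignant, CAF and endothelial, myeloid, lymphoid and plasmacytoid dendritic cells, with all genes as the last bar, for the 3 experiments. Timp1 RNA lies in malignant cells in the T127 pools (94.1%, against 84.1% of all UMIs) and in CAFs and endothelial cells in the T22 pools (94.7%, against 5.83% of all UMIs).

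Mmp2, gelatinase A, cuts denatured and basement membrane collagen. In i_CAF it stood at 492.5 CPM in the long-term pools (lowest 367, median 476, highest 613). The 4 short-term T22 pools gave 487, 503, 500.4 and 526.4 CPM and the 4 T127 pools gave 720, 828, 756 and 880 CPM. All T127 pools were above all T22 pools, though the ratio did not reach 2-fold. The next long-term cluster, Malign_2, was lower at 69.6 CPM, a ratio of 7.07. The gene was spread widely within i_CAF: 665 of 726 long-term cells had a UMI, and when each cell was thinned to 3000 UMIs 68.1%, 66.0% and 92.9% of cells in the long-term, T22 and T127 pools still did, against 0.873% of long-term lymphoid cells. The myofibroblast-like CAFs carried 36.4 CPM in the long-term and 109 CPM in the T22 pools.

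Mmp3, stromelysin 1, cuts proteoglycans and activates other proenzymes of the family. Of the 10 members it had the largest share of UMIs in CAFs and endothelial cells in all 3 experiments, at 88.5%, 98.3% and 66.5%. In i_CAF the long-term level was 438 CPM (240, 451 and 766 for the lowest, median and highest pool), and the next cluster, Malign_1, was 69.7-fold lower. The T22 pools gave 52.2, 144, 238 and 405 CPM and the T127 pools gave 567, 346, 213 and 508 CPM, so the lines overlapped and pools within a line differed widely. Few cells carried most of the molecules. Of 726 long-term i_CAF cells, 264 had a UMI and 30 held 50% of the 4635 UMIs. In T22, 1 cell held 461 of 1521 UMIs. In short-term T127 malignant cells gave 84.1% of all UMIs and 33.0% of Mmp3 UMIs, although 4.86% of them had one and 0.677% did after thinning.

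The genes that went with Mmp3 inside i_CAF were looked for by splitting the thinned cells into 177 with and 481 without an Mmp3 UMI in the long-term pools. The 8 genes with the largest long-term ratio were chosen there, after the values were seen, and were then read in the short-term pools, which took no part in that choice. Cpxm1, which encodes a carboxypeptidase-like secreted protein, was at 1674 against 428 CPM, the lipid carrier Fabp4 at 635 against 141 CPM and the apolipoprotein Apod at 1742 against 550.2 CPM. Those 3 genes, Fgl2 and Cemip were higher in the Mmp3 cells of both short-term sets too, and so was Scg3, in T22 on 1 UMI. Of the other pair, Reg1 (181 against 9.01 CPM in the long-term pools) was higher in T22 on 2 UMIs and not in T127, and Penk was not higher in either. The short-term Mmp3 cells numbered 38 in T22 and 30 in T127.

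Mmp14, a membrane-bound protease that activates pro-Mmp2 with the help of Timp2, was low in every cluster. Its i_CAF level was 27.9 CPM in the long-term pools (23.5, 25.9 and 37.5). The T22 pools gave 54.6, 61.9, 60.5 and 52.4 CPM and the T127 pools 31.7, 49.2, 28.7 and 39.3 CPM. All T22 pools were thus above all T127 pools, at less than 2-fold. The my_CAF (21.6 CPM) and endothelial (18.4 CPM) levels were close to it, and without long-term pools 1, 2 and 3 the highest cluster became my_CAF at 29.7 CPM. Myeloid clusters ran from 2.56 to 13.9 CPM but, being large, gave 51.5% of long-term Mmp14 UMIs.

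The 3 inhibitors were all high in stroma, and their order among stromal clusters differed. Timp1, the inducible inhibitor that also binds pro-Mmp9, stood at 2613 CPM in long-term i_CAF (1579, 2537 and 4920). T22 pools gave 1290, 1218, 1302 and 1241 CPM, and T127 pools gave 3211, 2522, 2757 and 1809 CPM. The T127 pools were all higher, 2.06-fold in sum (95% counting interval 1.99 to 2.14), and this was the only one of 8 tested members at least 2-fold higher in T127 i_CAF without overlap of pools (3.74% of genes were). Without T127 pool 1 the log2 ratio was 0.92, under 2-fold, and without the cell richest in Timp1 in each line it was 0.98. Timp2, which inhibits the gelatinases and takes part in pro-Mmp2 activation, was at 1764 CPM in long-term i_CAF (1276, 1663 and 2216), 980 CPM in T22 and 1229 CPM in T127.

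Timp3, the inhibitor that stays bound to the matrix, had another order. In T22 it was highest in my_CAF, where the pools gave 798, 1200, 918 and 798 CPM, and i_CAF stood at 347 CPM. Endothelial cells gave 1032, 705, 824 and 878 CPM in the T22 pools, which overlapped the my_CAF pools, and without T22 pool 2 the endothelial level (910.1 CPM) was the highest. In the long-term pools my_CAF held 1840 CPM (776, 1717 and 2751), endothelial cells 700.5 CPM (444, 681 and 1264) and i_CAF 588 CPM (462, 570.2 and 872). The my_CAF and i_CAF pools overlapped there.

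Between the CAF clusters, most members were higher in i_CAF. In the long-term pools 6 of 9 tested members were at least 2-fold higher in i_CAF than in my_CAF without overlap of pools, against 9.38% of 13458 genes, and 0 were higher in my_CAF (3.31% of genes). The median log2 ratio was 2.52 over the members and -0.12 over all genes tested. Mmp2 was 13.5-fold higher (9.30 to 20.6), Timp1 7.95-fold (7.01 to 9.06) and Timp2 5.48-fold (4.82 to 6.25), and Mmp3, at 0 UMIs in my_CAF, was at least 108-fold higher against a floor of 3 UMIs. The other members counted, Mmp13 and Mmp9, were also at 0 UMIs in my_CAF, at least 7.01-fold and 1.17-fold higher in i_CAF against that floor, so the Mmp9 bound (4.72 CPM in i_CAF) is under 2-fold and its call rests on the shallow my_CAF cluster. In T22, 4 of 9 members were higher in i_CAF (10.3% of genes), namely Mmp2, Mmp3, Timp1 and Timp2, and Timp3 was 2.74-fold higher in my_CAF (2.57 to 2.91, 7.6% of genes). The clusters were drawn on these same cells, so such ratios describe them and do not test them. Short-term T127 held 8 my_CAF cells and gave no comparison.

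Malignant cells of the 2 lines differed in Timp1, Timp2 and Timp3, and also in Mmp2 and Mmp3. Timp1 in the long-term pools was at 718 CPM in T127 cells (642, 724 and 833) and 21.3 CPM in T22 cells (8.73, 13.5 and 62.2), a ratio of 33.8 (31.5 to 36.2). In the short-term pools T127 cells gave 587, 594, 658 and 617 CPM and T22 cells gave 3.501, 5.31, 5.93 and 4.62 CPM, a ratio of 127.4 (113 to 145). No T22 pool came near a T127 pool in either experiment. After thinning to 3000 UMIs, 62.7% of long-term T127 malignant cells had a Timp1 UMI and 3.23% of T22 malignant cells did, below the 4.80% of lymphoid cells, and without thinning the shares were 91.7%, 16.6% and 6.28%. The long-term pools held cells of both lines in the same captures. Whether T127 RNA takes part in their T22 Timp1 level, the base of the 33.8-fold ratio, was not tested. That level is not read as expression.

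Timp2 and Timp3 differed less but also without overlap. Timp2 was at 991 CPM in long-term T127 cells (973, 990.2 and 1009) and 319.7 CPM in T22 cells (285, 326 and 347), 3.10-fold apart (3.04 to 3.16), and the short-term ratio was 3.20 (3.15 to 3.25). Timp3 was at 911 CPM in T127 cells (833, 925 and 1075) against 101 CPM in T22 cells (71.9, 106 and 126), 9.04-fold apart (8.75 to 9.33), and short-term T127 pools gave 1299, 1277, 1214 and 1452 CPM against 140.2, 180.5, 138 and 130.2 CPM in T22. The short-term Timp3 ratio was 8.87 (8.67 to 9.07), so for these inhibitors the ratio was close between experiments. For Timp1 the T22 value was higher in the long-term pools, where it is not read as expression.

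Among the proteases Mmp2 went the other way. It was at 42.7 CPM in long-term T22 malignant cells (35.9, 43.2 and 51.6) and 19.4 CPM in T127 malignant cells (14.2, 20.8 and 23.7), 2.20-fold higher in T22 (2.06 to 2.35). The log2 ratio of T127 to T22 fell under 2-fold with a pseudocount of 10 CPM (-0.84) and without the top 5% of cells by UMIs (-0.98). Short-term T22 pools gave 115, 147, 138 and 136 CPM and T127 pools 33.0, 34.7, 35.6 and 34.7 CPM, 3.88-fold apart (3.75 to 4.02). Within T22 the gene was almost all in Malign_2, at 69.6 CPM (57.1, 68.2 and 95.05) against 2.47 CPM (0.658, 2.08 and 4.54) in Malign_3, a ratio of 28.2 (20.5 to 39.8). It was the only member of 7 to differ between those clusters, where 8.64% of genes were higher in Malign_2 and 7.46% in Malign_3. Acta2 followed the same split at 7275 against 22.7 CPM, and its part in the Mmp2 difference was not tested. In short-term T22 the split was seen again, with 132, 159, 152 and 149 CPM in Malign_2 and 2.16, 4.49, 0.871 and 4.44 CPM in Malign_3.

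Mmp3 was higher in T127 malignant cells, at 5.14 CPM (1.97, 3.57 and 15.4) against 0.204 CPM, a ratio of 25.3 with a wide interval (12.7 to 58.8) because T22 had 8 UMIs. Of 4603 T127 cells, 24 held 50% of its UMIs. In all, 4 of 8 tested members were higher in long-term T127 cells (16.7% of genes) and 1, the Mmp2 call that the alternatives above lose, was higher in T22 (20.9% of genes). The Mmp3 call was also lost with a pseudocount of 10 CPM, at log2 ratios of 0.57 long-term and 0.27 short-term. The short-term counts were 4 of 7 (19.6% of genes) and 1 of 7 (23.2% of genes). The median log2 ratio of members was 0.79 long-term and 1.55 short-term, against -0.06 and -0.02 over all genes. Mmp14 stood at 6.43 CPM in T127 and 6.67 CPM in T22 in the long-term pools and at 7.16 and 10.48 CPM in the short-term pools. Between Malign_0 and Malign_1, 0 of 6 members reached 2-fold without overlap (0.338% and 0.899% of genes by direction). Timp1 was at 827 CPM in Malign_0 and 551 CPM in Malign_1.

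**Figure D3:**
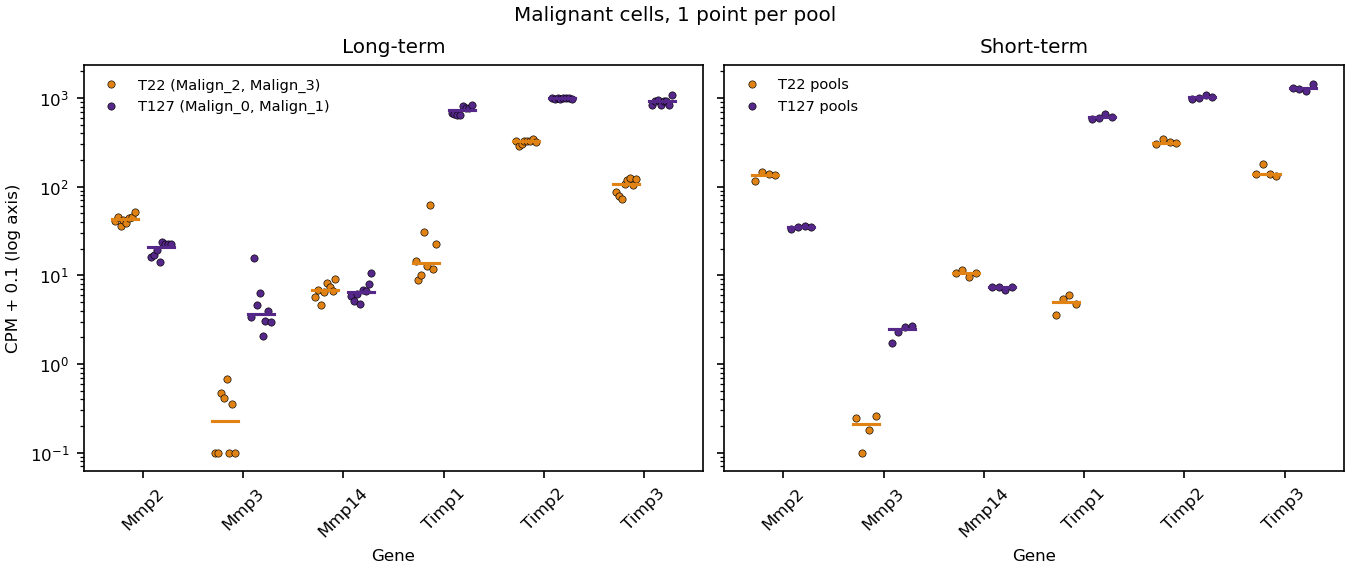
Level of 6 members in malignant cells (log axis, CPM + 0.1), with 1 point per pool and a bar at the median, for T22 (orange) and T127 (purple) in the long-term and short-term pools. The Timp genes sit higher in every T127 pool, as with Timp1 at 587 to 658 CPM against 3.501 to 5.93 CPM in the short-term pools, and Mmp2 sits higher in every T22 pool.

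The other 4 proteases peaked in myeloid clusters in the long-term pools, each in a different one. The short-term pools had exceptions: CAFs and endothelial cells held 63.6% of Mmp9 UMIs in T22 and 52.9% of Mmp13 UMIs in T127, where Mmp13 was highest in i_CAF (75.4, 327, 0 and 229 CPM). Macro-M1, the long-term peak of Mmp13, had too few T127 cells to be compared. Mmp8, the collagenase stored in neutrophil granules, was at 102 CPM in the long-term CD14-PF4 cluster (45.3, 96.7 and 174). Without that cluster the highest was Macro-M2, at 41.9 CPM (11.45, 38.6 and 90.1), while Macro-M1 stood at 2.21 CPM. The line of a long-term macrophage is not known, and short-term Macro-M1 held 1203 cells in T22 and 3 in T127. Cluster and line are thus not told apart in the long-term orders of Macro-M1 and Macro-M2. Mmp9, gelatinase B, was at 21.9 CPM in Macro-M2 (5.65, 17.1 and 47.2). Macro-MKI67 was at 16.01 CPM (1.14, 3.38 and 102) and Macro-others at 9.89 CPM (0.217, 2.39 and 61.7), so that these 3 clusters overlapped. In the last pair a single pool, long-term pool 5, set the upper end, and without it they were at 3.26 and 2.50 CPM.

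Mmp12, macrophage elastase, and Mmp13, a collagenase of fibrillar collagen, were higher in other cells. Mmp12 was highest in CD14-IL1B at 89.9 CPM (60.4, 88.7 and 135), followed by CD14-PF4 at 58.0 CPM and Macro-M1 at 56.7 CPM (24.0, 58.3 and 90.4), whose pools overlapped it. Within pools CD14-IL1B was above Macro-M1 in all but pool 7 (89.3 against 90.4 CPM). Mmp13 was highest in Macro-M1 at 163 CPM (90.5, 170.5 and 249), and Macro-M2 at 93.7 CPM (68.4, 88.9 and 138) overlapped it. Pool by pool Macro-M1 was above Macro-M2 in all but pool 4 (90.5 against 90.8 CPM). CD14-IL1B, the top long-term cluster for Mmp12, had 12.8 CPM of Mmp13. The short-term orders were not the long-term ones. Mmp12 in CD14-IL1B was at 3.93 CPM in T22, where Macro-M2 led at 18.8 CPM, and at 13.3 CPM in T127, where CD14-PF4 (35.7 CPM) and Macro-MKI67 (31.2 CPM) led. The T22 pools of Macro-M1 (16.7 CPM) overlapped those of Macro-M2, and without T22 pool 2 Macro-M1 led at 17.8 CPM. Mmp13 in T22 was at 93.3 CPM in Macro-M2 (83.4 to 107) and 42.0 CPM in Macro-M1 (26.8 to 52.8), the reverse of the long-term order and without overlap. Macrophages also held an inhibitor, with Timp2 at 509 CPM in long-term Macro-M2 (432, 500.4 and 620.3), 465 CPM in Macro-M1 and 455 CPM in Macro-others.

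The UMIs of these proteases were unevenly spread. Among 15451 long-term myeloid cells, 689 had Mmp8 UMIs and 90 held 50% of them, 338 had Mmp9 and 15 held 50%, 1821 had Mmp12 and 320 held 50%, and 3019 had Mmp13 and 391 held 50%. A single cell held 309 of the 1668 Mmp9 UMIs. Each of the 4 had under 1 UMI per myeloid cell on average, so a cell with 0 UMIs is not shown to lack the RNA. At 3000 UMIs per cell, 4.90% of long-term Macro-M2 cells had Mmp8, 2.31% Mmp9, 6.24% Mmp12 and 12.5% Mmp13.

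What else those cells expressed was read by splitting thinned myeloid cells by each protease. As with Mmp3, the 8 genes per protease were chosen on the long-term values. In the 383 long-term Mmp8 cells S100a8, a calprotectin subunit, was at 1699.7 CPM against 50.1 CPM in the other 12894 cells, and the chitinase-like gene Chil3 at 8856 against 379 CPM. Their 9 neutrophil markers summed to 2892 against 111 CPM, and their macrophage markers to 2346 against 16713 CPM. S100a8 alone made up most of that neutrophil sum. Monocyte markers of these cells are not given here, so the split does not name a cell type. The short-term T127 Mmp8 cells (154) gave 3312 against 577 CPM of Chil3 and 1208 against 7196 CPM of macrophage markers, and the 48 T22 cells gave 1250 against 48.2 CPM of Chil3. Whether neutrophil RNA captured with other cells takes part in this was not tested.

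The 162 long-term Mmp9 cells had 541 against 4.91 CPM of Ctsk, the collagen-degrading cathepsin of osteoclasts, 1163 against 55.5 CPM of S100a9 and 5031 against 525 CPM of Pf4. By these genes 45 of the cells had S100a8 or S100a9 and no Ctsk, 11 had Ctsk alone, 2 had both and 104 had neither. Other neutrophil and osteoclast markers took no part in this split, so the classes stand for these genes and not for cell types. The cells with neither held most of the 424 Mmp9 UMIs (234), the 11 Ctsk cells held 98 and the 45 calprotectin cells held 88. In short-term T127 the same classes held 6, 3, 2 and 24 of 35 cells, and 9, 19, 29 and 101 of 158 UMIs. Those 35 cells again had more Ctsk (1609.5 against 21.4 CPM), S100a9 (1029 against 50.7 CPM) and Pf4 (9895 against 1412 CPM).

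The 8 genes chosen for Mmp12 were Ccl17, Asgr2, Epcam, Plet1, AA467197, Mgl2, Igflr1 and Il1r2. In the 812 long-term Mmp12 cells the chemokine Ccl17 was at 698 against 64.7 CPM, the lectin receptor Asgr2 at 1129 against 142 CPM and the adhesion molecule Epcam at 571 against 83.8 CPM. All 8 were also higher in the 89 T127 cells, and 7 of 8 were in the 142 T22 cells, the exception being the decoy receptor Il1r2 at 21.1 against 25.3 CPM. The 8 genes chosen for Mmp13 were Rsad2, Cxcl10, Ifit3, Ifit2, Cmpk2, Ifit3b, Isg15 and Ifit1, each known as a gene that interferon can induce. They were picked for this difference, and no fixed list of interferon genes was tested. Rsad2 was at 439 against 101 CPM and Cxcl10 at 755 against 239 CPM in 1618 long-term cells. All 8 were higher in the Mmp13 cells of both short-term sets, as with Cxcl10 at 595 against 179 CPM in T22 and 1288 against 215 CPM in T127.

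**Figure D4:**
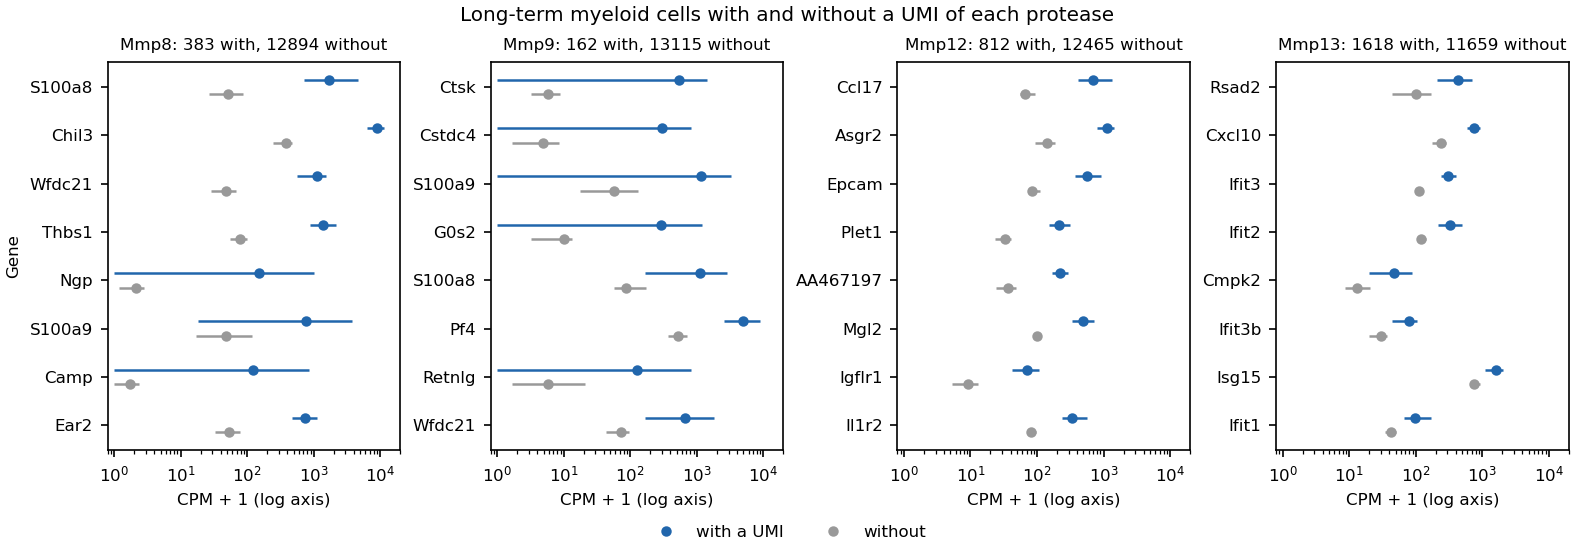
Level of 8 genes (log axis, CPM + 1) in long-term myeloid cells with and without a UMI of Mmp8, Mmp9, Mmp12 or Mmp13, all cells thinned to 3000 UMIs. Points are summed cells and lines the range over pools. The genes were chosen for this difference, which the picture therefore describes and does not test, such as Chil3 at 8856 against 379 CPM for Mmp8.

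Over the non-malignant clusters with 50 cells in both lines, 23 pairs of member and cluster were at least 2-fold higher in short-term T127 without overlap, and 10 were higher in T22. The members tested numbered 10 in CD16-CDKN1C and 9 in each of CD14-IL1B, CD14-PF4, Macro-M2, Macro-MKI67 and Macro-others. They numbered 8 in i_CAF, 7 in CD4_Tcm-TCF7, 5 in natural killer cells and 4 in endothelial cells. Over all genes the shares were 4.9% and 6.41% of 125680 pairs of gene and cluster. Without the lymphoid clusters and without Timp3, whose myeloid and lymphoid levels are set beside another transcript, Dcn, below, the counts were 18 and 9. With a pseudocount of 10 CPM all pairs numbered 17 and 7. Most were in macrophages. In Macro-M2, 3 of 9 members were higher in T127 (7.02% of genes) and 2 in T22 (6.99% of genes). The median log2 ratio was 0.46 over those members and 0.03 over all genes.

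Mmp8 and Mmp9 were the proteases higher in T127 Macro-M2. Mmp8 was at 51.8, 41.7, 46.1 and 44.3 CPM in T127 and 7.27, 5.31, 6.16 and 15.3 CPM in T22, a ratio of 5.29 (4.18 to 6.77). Mmp9 was at 14.4, 39.6, 17.0 and 37.7 CPM in T127 and 0, 0, 1.03 and 0.826 CPM in T22, a ratio of 63.0 (24.4 to 233) that rests on few T22 UMIs. Neutrophil markers moved with them, summing to 186 CPM in T127 Macro-M2 (68.5 to 377) and 25.0 CPM in T22 (15.5 to 44.0), with 7 of 9 detected in each and Ly6g and Ngp at 0 in both. Their part in the result was not tested.

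Mmp13 and Mmp2 were lower in T127 Macro-M2. Mmp13 was at 13.9, 6.86, 17.0 and 9.57 CPM in T127 and 99.3, 85.9, 107 and 83.4 CPM in T22, 8.05-fold higher in T22 (6.81 to 9.57), with 2.04% and 10.9% of thinned cells carrying a UMI. Mmp2 was at 0.914 CPM in T127 and at 11.7, 7.97, 10.3 and 10.3 CPM in T22, 11.1-fold higher in T22 (6.16 to 21.6). The T127 base was 13 UMIs, whose source was not tested, and is not read as expression. It was at 0.0307 per Dcn UMI, between T127 malignant cells (0.0112) and i_CAF (0.140). With a pseudocount of 10 CPM the log2 ratio of Mmp2 was -0.88, under 2-fold. The pools of the lines were fully separate for both genes. Mmp12 (17.7 and 18.8 CPM) and Mmp14 (11.9 and 14.8 CPM) did not reach 2-fold.

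Timp1 was the inhibitor that differed. Macro-M2 gave 81.5, 64.9, 101 and 66.7 CPM in T127 and 10.1, 7.08, 7.19 and 7.02 CPM in T22, a ratio of 9.80 (7.72 to 12.6). It was also higher in T127 in i_CAF and in each other myeloid cluster compared, with Macro-others at 30.4-fold (18.8 to 51.6) and CD16-CDKN1C at 34.5 against 2.24 CPM.

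In Macro-others 4 of 9 members were higher in T127 (8.81% of genes) and 3 in T22 (7.26% of genes). Mmp8 was at 25.8, 28.1, 7.54 and 22.5 CPM in T127 against 1.27 CPM in T22, 15.7-fold (9.02 to 28.5), and Mmp12 was also higher. The fourth was Timp3, at 8.41 against 2.40 CPM, which is not read as expression. Mmp13, at 16.2, 37.5, 16.3 and 5.99 CPM in T127 against 95.7, 57.8, 54.9 and 94.4 CPM in T22, was lower in T127, as were Mmp2 and Mmp14. With the mean of each cell's CPM in place of summed UMIs, the Mmp13, Mmp14 and Timp3 calls of this cluster were lost, at log2 ratios of -1.07, -0.92 and 1.31. Without T127 pool 4 the Mmp14 log2 ratio was -0.94, under 2-fold. Mmp9 there was at 0, 216, 0 and 50.9 CPM in T127, so that its pools overlapped those of T22.

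The remaining myeloid clusters also held differences. In CD16-CDKN1C, Mmp8, Mmp9 and Timp1 were higher in T127 (3 of 10, 9.67% of genes) and Mmp2 and Mmp13 lower (2 of 10, 8.3% of genes). Macro-MKI67, cycling macrophages, had 5 of 9 higher (6.17% of genes), which were Mmp8, Mmp9, Mmp12, Timp1 and Timp2, and Mmp2 lower (6.58% of genes). Without T127 pool 4 the Timp2 log2 ratio there was 0.999, just under 2-fold. CD14-IL1B had Mmp9, Timp1 and Timp3 higher (3 of 9, 5.36% of genes). The Mmp9 pools of that cluster overlapped once the cell with the most Mmp9 was left out. With a pseudocount of 10 CPM several of these calls fell under 2-fold. They were Mmp8 in CD16-CDKN1C, Mmp12 and Mmp2 in Macro-MKI67, and Mmp9 and Timp3 in CD14-IL1B. In CD14-PF4 Timp1 was higher in T127 (2.18% of genes), with pools that overlapped under the mean of each cell's CPM, and Mmp8 was higher in T22 at 129 against 50.8 CPM (2.9% of genes).

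Outside the myeloid cells few members differed. Natural killer cells had 50.03 CPM of Timp2 in T127 and 158 CPM in T22, so that 1 member was higher in T22 (9.31% of genes) beside Timp1, the 1 higher in T127 at 12.0 against 1.29 CPM (2.16% of genes). CD4_Tcm-TCF7 T cells had more Timp1 (13.8 against 1.03 CPM) and Timp3 (30.7 against 4.08 CPM) in T127 (3.11% of genes), with pools that overlapped when only cells of at least 3000 UMIs were used. The source of these low lymphoid Timp1 and Timp3 counts was not tested, and they are not read as expression. Ratios to Dcn are given below for all lymphoid cells together and cannot decide it. Endothelial cells had 0 of 4 in either direction (1.61% and 2.07% of genes).

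**Figure D5:**
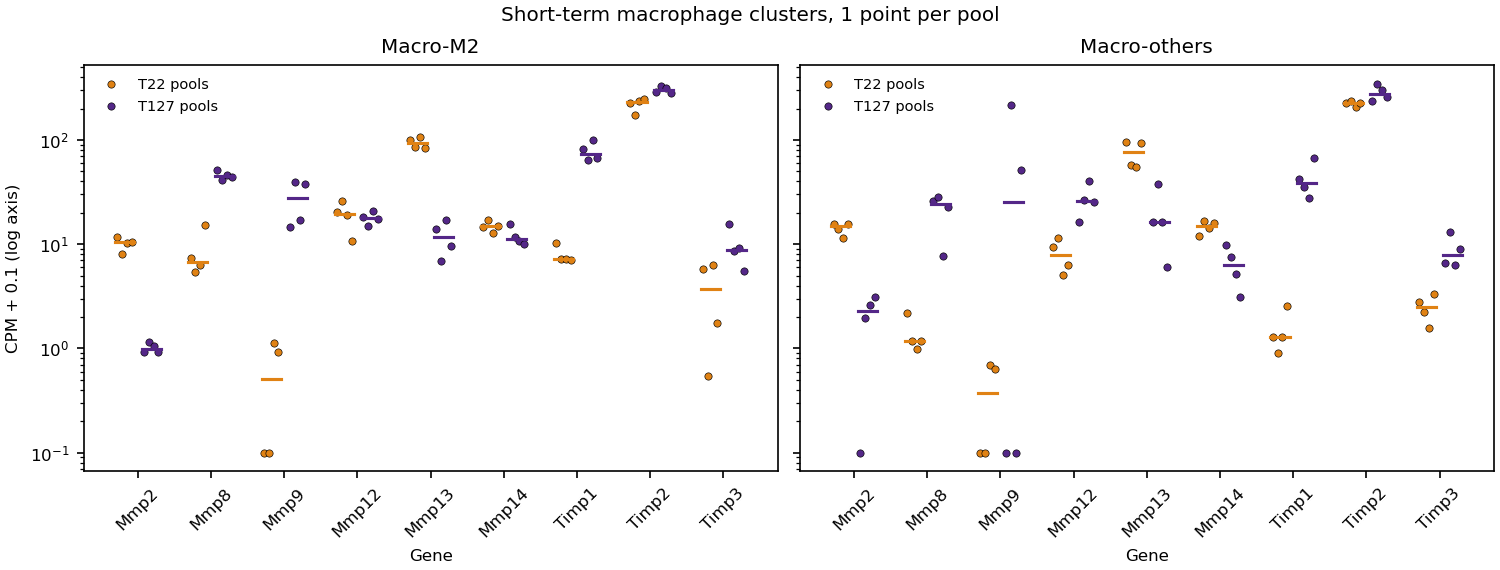
Level of the members in short-term Macro-M2 and Macro-others (log axis, CPM), with 1 point per pool and a bar at the median, for T22 (orange) and T127 (purple). Mmp8 and Timp1 are higher and Mmp2 and Mmp13 lower in every T127 pool of both clusters, as with Timp1 in Macro-M2 at 64.9 to 101 against 7.02 to 10.1 CPM.

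RNA that leaks from other cells before capture gives low counts in cells that do not express a gene, so lymphoid levels and the ratio to another stromal and malignant transcript, Dcn, are set beside these values. Lymphoid cells had 12.0 CPM of Timp1 in the T127 pools and 1.04 CPM in T22, and 16.3 and 3.46 CPM of Timp3. Per Dcn UMI, Timp3 in T127 was 0.423 in malignant cells and 0.362 in lymphoid cells (0.248 to 0.519). It was 0.324 in Macro-M2 (0.265 to 0.394), 0.282 in Macro-others and 0.188 in CD16-CDKN1C (0.109 to 0.309). The Macro-M2 and CD16-CDKN1C intervals lay below the malignant ratio. The part of leaked RNA in these counts was not tested, and the Timp3 values of myeloid and lymphoid T127 cells are not read as expression. Timp1 per Dcn UMI in T127 was 0.199 in malignant and 0.267 in lymphoid cells (0.174 to 0.400) but 2.61 in Macro-M2 (2.33 to 2.92), 1.44 in Macro-others and 0.683 in CD16-CDKN1C. T127 i_CAF was at 0.462, so that lymphoid Timp1 lay between the malignant and i_CAF ratios, Macro-M2 and Macro-others lay above both, and the CD16-CDKN1C interval (0.496 to 0.937) began close to i_CAF. In T22, Macro-others was at 0.156 per Dcn UMI, below i_CAF at 0.296. The source of the low Timp1 count of T22 Macro-others, the base of the 30.4-fold ratio, was not tested. It is not read as expression. The same holds for T22 CD16-CDKN1C, at 0.106 per Dcn UMI. Mmp2 in T22 was at 0.188 per Dcn UMI in malignant and 0.118 in i_CAF cells, against 0.336 in lymphoid cells, 1.11 in Macro-M2 and 1.57 in Macro-others. Its ratio was thus higher in macrophages, and in lymphoid cells, than in the cells with the highest levels. The ratio to Dcn therefore cannot by itself decide the source of a low count. Timp2 in Macro-M2 was at 9.05, 24.1 and 10.2 per Dcn UMI in the long-term, T22 and T127 pools.

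The genes most like each member over the 21 long-term clusters were found by Pearson's r of log2(CPM + 1) among 11794 genes, as a description of clusters that share libraries. Mmp3 was most like Lrrc15 (0.984), a surface marker of CAFs, Mmp2 most like Serpinf1 (0.911), Timp1 most like Aebp1 (0.947) and Timp3 most like Pls3 (0.974). Mmp8 was most like Chil3 (0.949), Mmp12 most like the chemokine Ccl6 (0.958) and Mmp13 most like Vcam1 (0.952). Mmp9 had the weakest best match, Fpr1, a receptor of myeloid cells, at 0.805. Among members the closest were Mmp12 and Mmp13 (0.838) and Timp1 and Timp3 (0.833).

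Among the 16 other family genes counted, 7 reached 10 CPM in a long-term cluster, and 5 of those peaked in stroma. They were Mmp23 and Mmp19 in i_CAF (239 and 54.5 CPM), Mmp27 in i_CAF (10.2 CPM), Mmp11, stromelysin 3, in my_CAF (40.4 CPM) and Mmp15, a membrane-type enzyme, in endothelial cells (65.8 CPM). Mmp25 (52.1 CPM) and Mmp16 (16.6 CPM) peaked in the gamma delta T cell cluster. Of 15 genes that activate, bind or limit these proteases 13 reached 10 CPM, with 5 peaks in stroma, 4 in myeloid, 3 in malignant and 1 in lymphoid cells (28.6%, 12.5%, 28.1% of all genes for the first 3). Of 14 Adam and Adamts genes all 14 did, with 11 peaks in stroma, led by Adamts5 in i_CAF at 783 CPM. In malignant cells 16 of 33 tested genes of these lists were higher in long-term T127 (16.7% of all genes) and 8 in T22 (20.9%), the latter near the share over all genes. The short-term counts were 15 of 32 (19.6%) and 13 of 32 (23.2%). The urokinase receptor Plaur was at 291 CPM in long-term T127 cells and 10.2 CPM in T22, and Lrp1, which clears protease and inhibitor complexes, at 779 and 38.2 CPM. Higher in T22 were Serpine2, a serine protease inhibitor, at 497 against 2.22 CPM, Lcn2, which binds Mmp9, at 1061 against 145 CPM, and Mmp15 at 36.9 against 0.279 CPM.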

How the data were processed

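Tumors were dissociated, tagged, pooled and captured with 10x 3' chemistry. The authors counted reads with Cell Ranger 6.0.0 on GRCm38, introns included, dropped cells with few genes or a high mitochondrial share, removed doublets (Scrublet) and named clusters. The deposited tables hold raw UMI counts and cluster names, and a normalized table of variable genes was not used. Cluster labels were taken as deposited. No doublet caller was run again. An alternative left out the top 5% of cells by UMIs.

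Counts were summed per cluster and experiment, and per pool, as CPM with exact Poisson 95% intervals. Ratios have conditional binomial intervals. Both cover counting error only. A difference was counted when it was at least 2-fold on log2(CPM + 1), with ranges over pools of at least 10 cells that did not overlap, among genes at 1 CPM or more in either group. A gene's highest cluster was sought over clusters of at least 50 cells where it reached 10 CPM. The floor for a count of 0 was 3 UMIs. Shares of cells and the split by a protease used cells thinned to 3000 UMIs (42033 of 48824 cells, 6791 left out). Companion genes had at least 20 UMIs and were ranked by ratio with a pseudocount of 10 CPM, 8 per member, and their ranges used pools with at least 5 such cells. All 10 members were named in every cluster, with the 3 most similar genes of each and those of 3 fixed lists that reached 10 CPM or were counted as different. The members and lists were chosen with earlier results of these data known. Scripts were tested on simulated data. Sums and intervals were computed with scipy 1.17.1 and pandas 2.3.3 under Python 3.11.15, and figures were drawn with matplotlib 3.10.9. Alternatives were another pseudocount, the mean of each cell's CPM, cells of at least 3000 UMIs or 1000 genes, all copies of shared barcodes, long-term pools 1 to 3 left out, smaller clusters admitted, and each pool left out in turn. The alternatives without the CD14-PF4 cluster and without a member's richest cell in each cluster were added after the data were seen.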

Additional observations from a re-analysis of the deposited data

Results flagged for a closer look

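Mmp9 stood far apart in 1 pool on 2 occasions among 30 sets of pools looked at, and no chance rate was computed. Each set was a member in its highest cluster, so the flagged values also helped to pick the set. With each cluster's cell richest in Mmp9 left out, i_CAF became highest in T22 (9.93 CPM) and Macro-M2 in T127 (23.7 CPM). In the CD14-PF4 cluster of short-term T22, pool 4 was at 86.1 CPM over 23 cells while the other 3 pools were at 0, and 18 of the 24 UMIs were in 1 cell. In plasmacytoid dendritic cells of short-term T127, pool 1 was at 221 CPM over 31 cells while the others were at 0 to 3.15 CPM, and 60 of the 61 UMIs were in 1 cell. Without those cells the cluster levels were 8.10 and 0.984 CPM. In clusters outside those sets, long-term pool 5 was high in Mmp9, at 102 CPM in Macro-MKI67, where no other pool passed 6.51 CPM, at 61.7 CPM in Macro-others (5.96 CPM) and at 25.5 CPM in Malign_2 (3.26 CPM), where 71 of 89 UMIs were in 1 cell.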

How the results depend on the processing

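No paired analysis was possible because the pools hold mixed tumors and the results come from no test. The number of members at least 2-fold higher in long-term T22 than T127 malignant cells was 1, but 0 with a pseudocount of 10 CPM (Mmp2 at a log2 ratio of -0.84), 0 without the top 5% of cells by UMIs (Mmp2 at -0.98) and 2 without long-term pools 1, 2 and 3, where Mmp12 joined at -1.39. With each pool left out in turn that number ran from 1 to 2, with 2 without long-term pool 2. Leaving out pools moved the short-term T127 malignant count between 4 and 5, the pairs higher in T127 between 23 and 25, those higher in T22 between 9 and 13 and the shared highest clusters between 12 and 13. With a pseudocount of 10 CPM those pairs numbered 17 and 7, since 6 pairs of T127 (Mmp8 in CD16-CDKN1C, Mmp9 and Timp3 in CD14-IL1B, Mmp12 in Macro-MKI67, Timp1 in natural killer cells and Timp3 in Macro-others) and 3 of T22 (Mmp2 in Macro-M2 and Macro-MKI67, Mmp14 in Macro-others) fell under 2-fold. Without lymphoid clusters and Timp3, left out after seeing the data, they were 18 and 9. The mean of each cell's CPM lost Mmp13, Mmp14 and Timp3 in Macro-others (-1.07, -0.92 and 1.31), Timp1 in CD14-PF4 (2.22, with overlapping pools) and Timp1 in i_CAF (0.90). No direction reversed in the alternatives run. The Mmp3 ratios between malignant lines fell under 2-fold with a pseudocount of 10 CPM, at 0.57 long-term and 0.27 short-term on the log2 scale. In short-term Mmp9 without T127 pool 1 or 3, the highest cluster became Macro-others at 74.6 or 81.9 CPM. The Mmp9 and Mmp3 ratios to T22 have wide intervals because T22 gave few UMIs of them. The causes were not tested.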
